A study of Homo sapiens with 12 samples.

Results

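The 10 genes CDH1, CDH2, FN1, VIM, SNAI1, SNAI2, ZEB1, ZEB2, TWIST1 and MMP2 were taken by symbol from 36762 symbols, and each had 1 row in the hESC table and 1 row in the iMeLC table. They were described in human embryonic stem cells (hESC) of the UCLA1 line and in incipient mesoderm-like cells (iMeLC), the brief intermediate that stem cells are taken through on the way to primordial germ cell-like cells. Lines with a knockout of the catalytic domain of TET1 (CDKO) were set against control lines (CTRL), with 3 libraries in each of the groups CDKO iMeLC, CTRL iMeLC, CDKO hESC and CTRL hESC. TET1 catalyses the oxidation of methylated cytosines, a step towards their removal. How iMeLC were induced, and for how long, is not described in the labels used here. The iMeLC libraries are named by line (CDKO1102, CDKO1105, CDKO1312, CTRL1101, CTRL1106 and CTRL1109), while the hESC columns carry a genotype and a number from 1 to 3 and are named CDKO hESC 1 and so on.

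In the cadherin switch, a cell replaces E-cadherin (CDH1), the adhesion molecule of epithelia, with N-cadherin (CDH2), the cadherin of many mesenchymal and neural cells. The switch is part of the epithelial to mesenchymal transition, in which zinc finger repressors of the SNAI and ZEB families and the helix-loop-helix factor TWIST1 silence epithelial genes, and cells gain the filament protein vimentin (VIM), deposit fibronectin (FN1) and secrete matrix-degrading enzymes such as MMP2. In the embryo the same programme runs at the primitive streak, where epiblast cells, the counterpart of primed human stem cells, leave the epithelium as mesoderm and endoderm.

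The promoter sequences of the genes that moved together across the stages are shown first. RefSeq windows on GRCh38.p14, from 250 bases before to 50 bases after an annotated start, were held for CDH2, FN1, VIM, ZEB1 and ZEB2, 12 windows in all, and none were held for CDH1, SNAI1, SNAI2, TWIST1 and MMP2. They were searched for CAGGTG on either strand (CACCTG on the strand shown), the letters that the SNAI and ZEB zinc fingers are known to bind. The motif was in 2 of the 12 windows, both among the 7 windows of ZEB1, a share near that of all genes, 7231 of 35116 windows (20.6%). The stretches before the start of VIM (chr10:17227991-17228240, plus strand) and of ZEB1 (chr10:31318167-31318416, plus strand), and the bases -250 to -105 from the FN1 start (chr2:215436173-215436318, minus strand), read as follows, with the motif in capitals.
VIM: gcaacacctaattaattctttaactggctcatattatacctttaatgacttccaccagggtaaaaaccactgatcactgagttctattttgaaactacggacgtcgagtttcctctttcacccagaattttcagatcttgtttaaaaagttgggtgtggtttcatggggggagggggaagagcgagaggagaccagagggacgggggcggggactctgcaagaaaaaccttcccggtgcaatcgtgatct
ZEB1: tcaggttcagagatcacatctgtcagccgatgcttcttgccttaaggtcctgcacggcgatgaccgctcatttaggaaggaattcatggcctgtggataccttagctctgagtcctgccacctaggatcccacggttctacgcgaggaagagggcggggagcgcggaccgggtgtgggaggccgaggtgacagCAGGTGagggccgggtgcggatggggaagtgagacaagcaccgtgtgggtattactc
FN1: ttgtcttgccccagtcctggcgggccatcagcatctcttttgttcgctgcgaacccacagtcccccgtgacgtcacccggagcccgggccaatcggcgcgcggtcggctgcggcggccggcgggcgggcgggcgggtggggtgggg

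A second ZEB1 start, with the window chr10:31318966-31319265 on the plus strand, carried 3 matches, the most of the 12 windows searched. Of all 35116 windows, 223 (0.635%) reached that number, a share per window and not for the highest of 12. The matches began 242 and 85 bases before that start and at base 34 after it. Their surroundings are given with the motif in capitals.
ZEB1 at -242, chr10:31318966-31318991: ccccaccaCACCTGaggaaaactttt
ZEB1 at -85, chr10:31319119-31319148: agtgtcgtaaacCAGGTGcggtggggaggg
ZEB1 at 34, chr10:31319237-31319265: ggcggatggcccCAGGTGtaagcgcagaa
These matches describe the letters in the windows and are not binding sites shown by these data.

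Library totals were 52121702 to 109479071 counts in iMeLC and 12517593 to 18855099 counts in hESC, so low levels carried less counting error in iMeLC. The pluripotency markers summed to 4842 to 6005 CPM (counts scaled to library size) in iMeLC and to 8208 to 9949 CPM in hESC, and 6 of 8 primitive streak markers were called higher in iMeLC in each genotype. Of all genes tested, 32.1% were called higher in iMeLC in CDKO and 29.5% in CTRL. TET1 itself stood at 303.6 to 355.6 CPM in CDKO iMeLC and 288.5 to 322.3 CPM in CTRL iMeLC, and at 334.8 to 395.7 CPM in CDKO hESC and 290.4 to 339.2 CPM in CTRL hESC. That count covers the whole gene and checks nothing about the deleted domain. In 1 library, CDKO hESC 3, definitive endoderm markers summed to 507.5 CPM, compared with 44.63 CPM in CDKO hESC 1, 60.71 CPM in CDKO hESC 2 and 22.84 to 82.21 CPM in CTRL hESC. CER1 made up 357.8 CPM of the sum in CDKO hESC 3. In bulk RNA a level cannot tell fewer cells of a type apart from less RNA per cell.

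From hESC to iMeLC, N-cadherin rose 12.7-fold in CDKO and 11.5-fold in CTRL, while E-cadherin did not fall. CDH2 (ENSG00000170558, GRCh38 chr18:27950966-28177446, minus strand) had 366.5, 301.4 and 405.2 CPM in the iMeLC lines CDKO1102, CDKO1105 and CDKO1312, against 20.8, 21.79 and 41.3 CPM in CDKO hESC 1 to 3. It had 265, 121.7 and 243.2 CPM in the iMeLC lines CTRL1101, CTRL1106 and CTRL1109, against 21.93, 16.98 and 16.1 CPM in CTRL hESC 1 to 3. Every iMeLC library lay above every hESC library, the lowest iMeLC value being that of CTRL1106 and the highest hESC value that of CDKO hESC 3. The log2 fold change, iMeLC over hESC, was 3.67 in CDKO (SE 0.318, adjusted p = 5.16e-07) and 3.52 in CTRL (SE 0.319, adjusted p = 1.04e-06), by edgeR's quasi-likelihood test, adjusted by Benjamini-Hochberg across 20262 genes. Every adjusted p below comes from that test, over all genes of its comparison, unless another tool is named.

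CDH1 (ENSG00000039068, chr16:68737225-68835548, plus strand) had 364.2, 358 and 310.1 CPM in the CDKO iMeLC libraries, against 242, 225.8 and 215.5 CPM in CDKO hESC. It had 340.6, 369.1 and 274.5 CPM in the CTRL iMeLC libraries, against 225.9, 243.3 and 221 CPM in CTRL hESC. No iMeLC library fell into the hESC range in either genotype. CDH1 rose by a log2 fold change of 0.60 in CDKO (SE 0.107, adjusted p = 0.000369) and 0.51 in CTRL (SE 0.107, adjusted p = 0.00142), that is 1.51-fold and 1.43-fold. The size of this small rise depended on the scaling: with library totals alone in place of TMM, the median of all genes moved by -0.386 in CDKO and -0.296 in CTRL, and CDH1 stood at 0.21 (adjusted p = 0.0817) and 0.22 (adjusted p = 0.0842). No scaling tried gave CDH1 a negative stage difference.

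**Figure D1:**
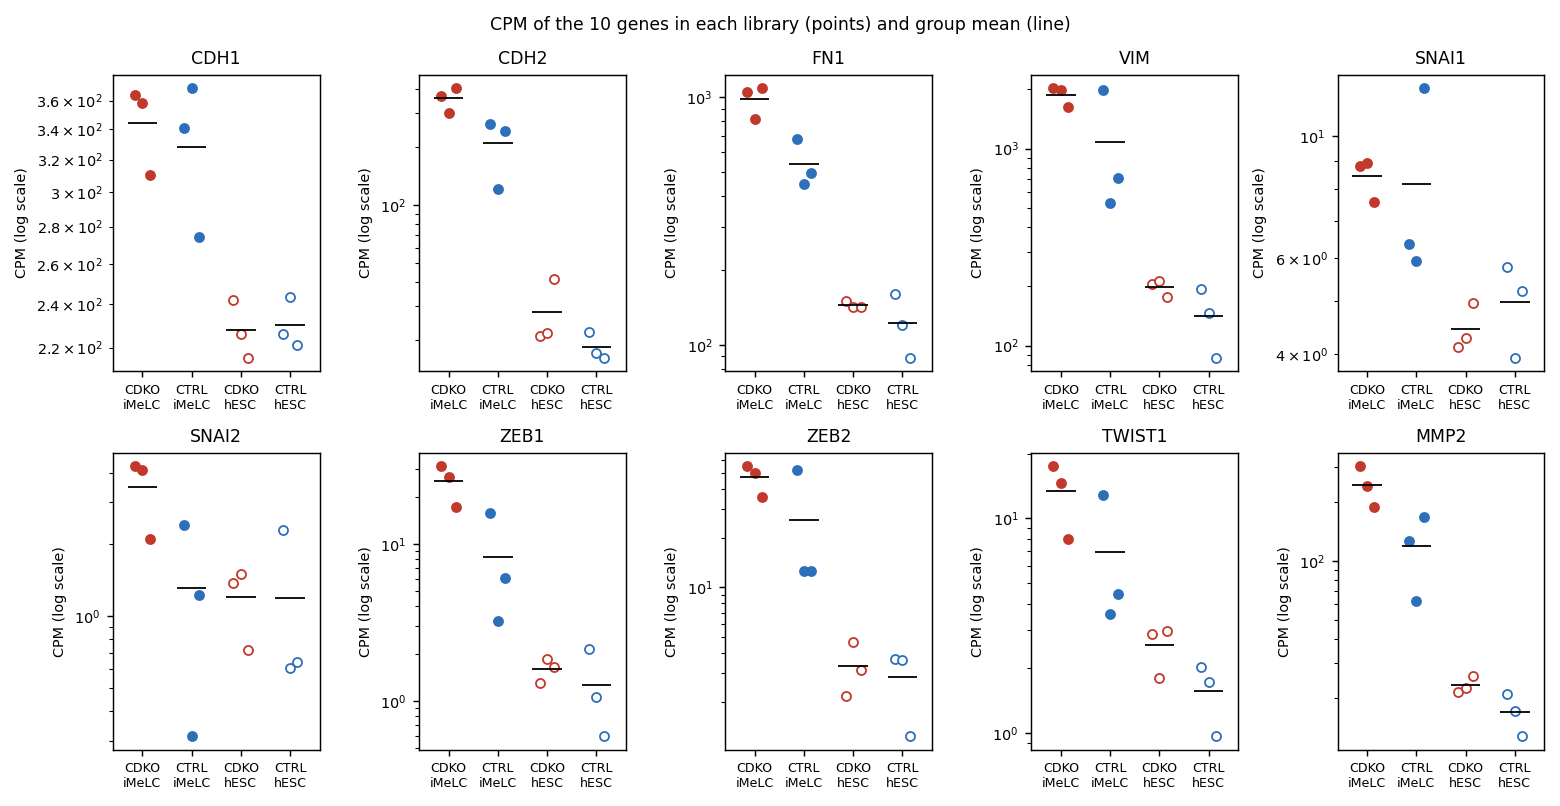
Levels of the 10 genes in CPM (log scale, each panel with its own range) in each library, as points, with group means as lines, for CDKO iMeLC, CTRL iMeLC, CDKO hESC and CTRL hESC (3 libraries each). CDH2 separates the stages fully (121.7 to 405.2 CPM in iMeLC, 16.1 to 41.3 CPM in hESC), CDH1 spans only 215.5 to 369.1 CPM in all, and VIM, ZEB1, ZEB2 and TWIST1 show 1 CTRL iMeLC library, CTRL1101, far above the other two.

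Per kilobase of annotated exon, N-cadherin stood at 0.412 to 1.631 times the level of E-cadherin in iMeLC. In hESC it stood at 0.0871 to 0.239 times that level. This scale sets levels of different genes side by side, and it depends on the annotated exon lengths. The ratio of CDH2 to CDH1 was 1.256, 1.051 and 1.631 in CDKO1102, CDKO1105 and CDKO1312 as iMeLC, and 0.971, 0.412 and 1.106 in CTRL1101, CTRL1106 and CTRL1109. In hESC it was 0.107, 0.120 and 0.239 in CDKO hESC 1 to 3, and 0.121, 0.0871 and 0.0909 in CTRL hESC 1 to 3. All 3 CDKO iMeLC libraries held more CDH2 than CDH1, as did CTRL1109 alone among the CTRL lines, and the genotypes overlapped in either stage. That tally depends on the exon lengths: without length scaling the ratio was 1.006, 0.842 and 1.307 in CDKO1102, CDKO1105 and CDKO1312, and 0.778, 0.330 and 0.886 in CTRL1101, CTRL1106 and CTRL1109, so CDKO1105 and CTRL1109 lay below 1. The mean ratio per kilobase was 1.31 ± 0.294 in CDKO iMeLC and 0.830 ± 0.368 in CTRL iMeLC, and 0.156 ± 0.0727 in CDKO hESC and 0.0997 ± 0.0186 in CTRL hESC (SD, n = 3 each). CDKO hESC 3, which had the highest hESC ratio, is the library with the raised endoderm markers. The part of those markers in its CDH2 level was not tested.

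**Figure D2:**
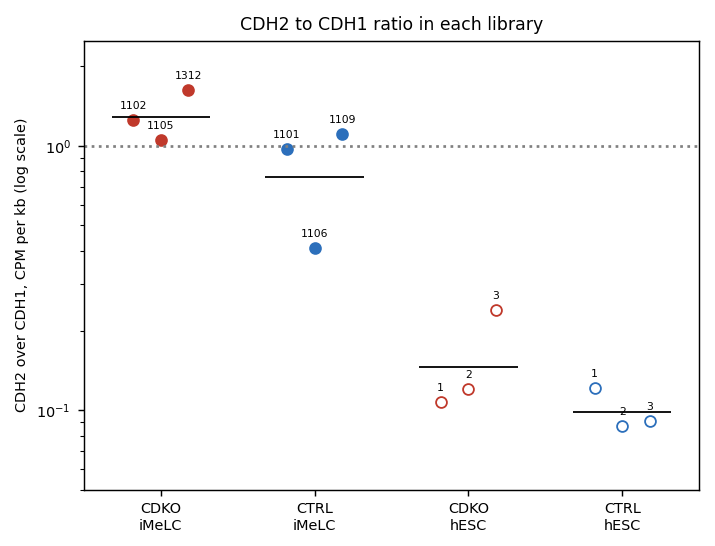
Ratio of CDH2 to CDH1 (CPM per kilobase of exon, log scale) in each library, as points labelled by line or number, with the line at the mean of the log2 ratios of each group (3 libraries each). The dotted line marks equal levels: iMeLC libraries lie between 0.412 and 1.631, hESC libraries between 0.0871 and 0.239.

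Of the 10 genes, 9 were called higher in iMeLC in CDKO, where 32.1% of all genes tested were called higher, and 9 were called higher in CTRL, where 29.5% of all genes were. None of the 10 was called lower, beside 27.7% of all genes in CDKO and 19.9% in CTRL. The gene that did not pass in either genotype was SNAI2. All 10 had iMeLC libraries wholly above the hESC libraries in CDKO (36.1% of all genes did), and 9 did in CTRL (30.6%). The median log2 fold change of the 10 was 3.01 in CDKO and 2.44 in CTRL, beside -0.08 and -0.01 for all genes. Stage coincided with the table and with sequencing depth, so the stage and a difference between the tables cannot be told apart. Fibroblast or feeder markers moved along: of 11, 9 were called higher and 1 lower in CDKO iMeLC, and 8 higher and 1 lower in CTRL iMeLC. They summed to 1065 to 1385 CPM in CDKO iMeLC and 693.6 to 1284 CPM in CTRL iMeLC, against 524.1 to 674.4 CPM in CDKO hESC and 438.9 to 674.4 CPM in CTRL hESC. Their part in the stage differences was not tested.

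Among the regulators, ZEB1, ZEB2, TWIST1 and SNAI1 were called higher in iMeLC in both genotypes. ZEB1 (ENSG00000148516, chr10:31318495-31529814), a repressor of CDH1 and of other epithelial genes, had 31.22, 26.79 and 17.13 CPM in the CDKO iMeLC libraries, against 1.3, 1.849 and 1.64 CPM in CDKO hESC. In the CTRL lines it had 15.65, 3.212 and 6.054 CPM in iMeLC, against 2.143, 1.061 and 0.5963 CPM in hESC. The CDKO iMeLC libraries were all above the CTRL iMeLC libraries, and CTRL1106 came nearest to the hESC range. ZEB1 rose by a log2 fold change of 3.96 in CDKO (SE 0.567, adjusted p = 5.55e-05) and 2.73 in CTRL (SE 0.56, adjusted p = 0.00126).

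ZEB2 (ENSG00000169554, chr2:144364364-144524583), the other member of that family, had 54.62, 49.92 and 35.68 CPM in CDKO iMeLC, against 2.167, 4.621 and 3.125 CPM in CDKO hESC. Its CTRL values were 52.02, 12.52 and 12.66 CPM in iMeLC, against 3.682, 3.588 and 1.239 CPM in hESC. CTRL1101 lay among the CDKO lines, while CTRL1106 and CTRL1109 stood well below them and still above all hESC libraries. ZEB2 rose by 3.80 in CDKO (SE 0.578, adjusted p = 9.28e-05) and 3.20 in CTRL (SE 0.572, adjusted p = 0.000449) on the log2 scale.

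TWIST1 (ENSG00000122691, chr7:19020991-19117672), a mesoderm regulator, had 17.46, 14.61 and 8.03 CPM in CDKO iMeLC and 12.83, 3.56 and 4.411 CPM in CTRL iMeLC, against 1.8 to 2.972 CPM in CDKO hESC and 0.9633 to 2.033 CPM in CTRL hESC. Again CTRL1101 lay within the CDKO range and the other CTRL lines below it. TWIST1 rose by a log2 fold change of 2.39 in CDKO (SE 0.486, adjusted p = 0.000948) and 2.15 in CTRL (SE 0.496, adjusted p = 0.0029).

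Of the SNAI genes, SNAI1 rose 1.89-fold in CDKO and 1.64-fold in CTRL, and SNAI2 did not pass in either genotype. SNAI1 (ENSG00000124216, chr20:49982999-49988886), which starts the transition at the mouse primitive streak, had 8.817, 8.952 and 7.596 CPM in CDKO iMeLC and 6.368, 5.914 and 12.25 CPM in CTRL iMeLC. In hESC it had 4.117 to 4.97 CPM in CDKO and 3.941 to 5.77 CPM in CTRL. The iMeLC libraries lay above those of hESC in each genotype, in CTRL by a narrow margin for CTRL1101 and CTRL1106. The log2 fold change was 0.92 in CDKO (SE 0.266, adjusted p = 0.00939) and 0.72 in CTRL (SE 0.262, adjusted p = 0.0371). The CTRL call did not hold without CTRL1109 as iMeLC (0.25, adjusted p = 0.305), without CTRL hESC 2 (0.59, adjusted p = 0.131) or without CTRL hESC 3 (0.79, adjusted p = 0.0618), and library totals alone ended the call in CDKO (0.53, adjusted p = 0.103) and in CTRL (0.42, adjusted p = 0.199).

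SNAI2 (ENSG00000019549, chr8:48917604-48921740), the SNAI member known for neural crest and mesoderm migration in chick, had the lowest level per kilobase of the 10 in iMeLC. It had 4.253, 4.094 and 2.112 CPM in CDKO iMeLC and 2.411, 0.3131 and 1.222 CPM in CTRL iMeLC, against 1.372, 1.508 and 0.7173 CPM in CDKO hESC and 2.308, 0.6064 and 0.6422 CPM in CTRL hESC. In CDKO the iMeLC libraries were all higher. In CTRL the stages overlapped, with CTRL1106 below every hESC library. The log2 fold change was 1.54 in CDKO (95% interval 0.09 to 2.99, adjusted p = 0.0626) and 0.17 in CTRL (95% interval -1.27 to 1.60, adjusted p = 0.853). In CDKO it did pass without a filter on low counts (adjusted p = 0.0276), by DESeq2 (adjusted p = 0.0387) and in a fit of the 6 CDKO libraries alone (adjusted p = 0.00321).

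The matrix and cytoskeletal genes rose together. FN1 (ENSG00000115414, chr2:215360440-215436172), the adhesive matrix protein that cells crawl on, had 1048, 820.7 and 1090 CPM in CDKO iMeLC, against 150.1, 142.2 and 141.8 CPM in CDKO hESC. In the CTRL lines it had 676.1, 446.3 and 494.8 CPM in iMeLC, against 160.5, 120.1 and 88.53 CPM in hESC. All CDKO iMeLC libraries exceeded all CTRL iMeLC libraries. FN1 rose by a log2 fold change of 2.77 in CDKO (SE 0.208, adjusted p = 1.34e-07) and 2.13 in CTRL (SE 0.203, adjusted p = 1.69e-06).

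VIM (ENSG00000026025, chr10:17228259-17237593), the intermediate filament of mesenchymal cells, had 2033, 1980 and 1634 CPM in CDKO iMeLC, against 204.9, 212 and 175.4 CPM in CDKO hESC. In CTRL it had 1986, 531 and 709.3 CPM in iMeLC, against 193, 146.3 and 86.52 CPM in hESC. CTRL1101 lay within the range of the CDKO lines, and CTRL1106 and CTRL1109 lay far below it. The log2 fold change was 3.25 in CDKO (SE 0.427, adjusted p = 2.57e-05) and 2.92 in CTRL (SE 0.422, adjusted p = 7.39e-05).

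MMP2 (ENSG00000087245, chr16:55389700-55506691), a secreted gelatinase that cuts basement membrane collagen, had 303.6, 241.1 and 187.6 CPM in CDKO iMeLC and 126.8, 62.43 and 168 CPM in CTRL iMeLC. In hESC it had 21.31, 22.43 and 25.77 CPM in CDKO and 20.94, 17.23 and 12.75 CPM in CTRL. The genotypes did not overlap in either stage, CTRL1109 and CTRL hESC 1 coming nearest to the CDKO range. MMP2 rose with stage by a log2 fold change of 3.40 in CDKO (SE 0.318, adjusted p = 1.1e-06) and 2.81 in CTRL (SE 0.313, adjusted p = 7.17e-06).

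The library CTRL1101 carried part of the CTRL rise. Without it the log2 stage difference in CTRL was 2.09 for VIM, 1.85 for ZEB1, 2.12 for ZEB2 and 1.31 for TWIST1. With any 1 library of CTRL left out in turn, these 4 still passed, with adjusted p of up to 0.000521 for VIM, 0.00744 for ZEB1, 0.00264 for ZEB2 and 0.0158 for TWIST1.

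**Figure D3:**
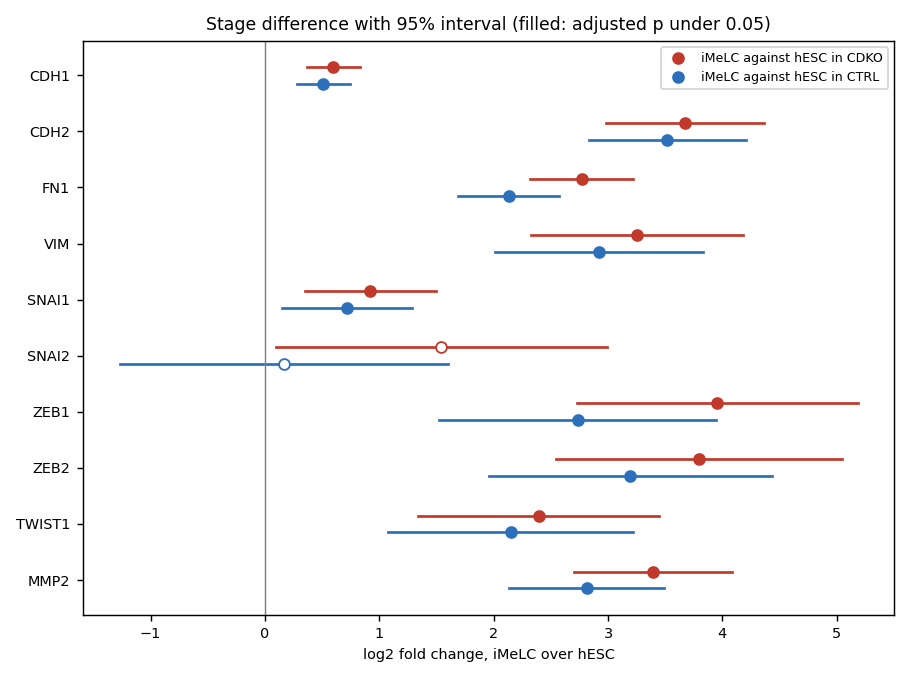
Stage difference of the 10 genes, as log2 fold change of iMeLC over hESC with its 95% interval, in CDKO and in CTRL (fit over 12 libraries; filled points, adjusted p under 0.05). CDH2, ZEB2, VIM and MMP2 lie between 2.81 and 3.80 in both genotypes, CDH1 at 0.51 and 0.60, and only SNAI2 is open.

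The order of levels differed with the stage. Per kilobase of exon, VIM led in iMeLC, at 364.9 ± 42.0 CPM per kilobase in CDKO and 208.5 ± 153.9 CPM per kilobase in CTRL (SD, n = 3 in every group). In CDKO iMeLC, CDH2 (72.3 ± 10.6), FN1 (57.0 ± 8.37), CDH1 (55.7 ± 4.79) and MMP2 (49.5 ± 11.8 CPM per kilobase) followed with overlapping ranges between neighbours. In CTRL iMeLC the order was CDH1 (53.1 ± 7.86), CDH2 (42.4 ± 15.6), FN1 (31.1 ± 6.995) and MMP2 (24.1 ± 10.8 CPM per kilobase), again with overlap between neighbours. The place of FN1 depends on its annotated exon length, 17315 bases. Without length scaling FN1 had a mean of 986.1 CPM in CDKO iMeLC, above CDH2 (357.7) and CDH1 (344.1 CPM). In CTRL iMeLC it had 539 CPM, above CDH1 (328.1) and CDH2 (210 CPM). In CDKO hESC, VIM at 38.3 ± 3.76 CPM per kilobase and CDH1 at 36.9 ± 2.16 CPM per kilobase did not differ beyond their spread, and in CTRL hESC CDH1 at 37.3 ± 1.90 CPM per kilobase led VIM at 27.5 ± 10.4 CPM per kilobase, with overlapping libraries. The 5 regulators were the lowest 5 of the 10 in every group, at 1.03 to 6.58 CPM per kilobase on average in CDKO iMeLC and 0.388 to 4.85 CPM per kilobase in CTRL iMeLC. Among them SNAI1 led in hESC, at 2.64 ± 0.269 CPM per kilobase in CDKO and 2.95 ± 0.557 CPM per kilobase in CTRL. ZEB2 was last there, at 0.132 ± 0.0494 CPM per kilobase in CDKO and 0.113 ± 0.0552 CPM per kilobase in CTRL. That place depends on the length used, as the annotated exons of ZEB2 cover 25058 bases. Without length scaling ZEB2 had a mean of 3.305 CPM in CDKO hESC, above TWIST1 (2.554), ZEB1 (1.596) and SNAI2 (1.199 CPM). In CTRL hESC it had 2.836 CPM, again above TWIST1 (1.572), ZEB1 (1.267) and SNAI2 (1.186 CPM).

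Within iMeLC all 10 genes had a positive log2 fold change of CDKO over CTRL, and none passed edgeR's test, in which 0.345% of all 19999 genes were called. At an unadjusted p under 0.05, 4 of the 10 passed (CDH2, FN1, ZEB1 and MMP2), beside 19.8% of all genes. The CDKO libraries lay wholly above the CTRL libraries for the same 4 genes, beside 14.3% of all genes. A positive difference was found for 46.9% of all genes. The median of the 10 was 0.84 and that of all genes -0.03.

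The largest differences were those of ZEB1 and SNAI2. ZEB1 averaged 25.1 ± 7.20 CPM in CDKO iMeLC and 8.31 ± 6.52 CPM in CTRL iMeLC (SD, n = 3 each), a log2 fold change of 1.57 (95% interval 0.35 to 2.78, adjusted p = 0.179). SNAI2 averaged 3.49 ± 1.19 CPM in CDKO and 1.32 ± 1.05 CPM in CTRL, a log2 fold change of 1.38 (95% interval -0.11 to 2.86, adjusted p = 0.28). Neither passed after adjustment over all genes. For ZEB1 the interval held only positive values, and the CDKO libraries lay wholly above the CTRL libraries. For SNAI2 the interval reached negative values, and the libraries of the genotypes overlapped. MMP2 stood at 1.004 (SE 0.338, adjusted p = 0.18), with 244.1 ± 58.1 CPM in CDKO and 119.1 ± 53.2 CPM in CTRL.

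FN1 came nearest to the threshold, with 986.1 ± 145 CPM in CDKO iMeLC and 539 ± 121 CPM in CTRL iMeLC, and a log2 difference of 0.84 (SE 0.174, adjusted p = 0.104). It passed by DESeq2 (adjusted p = 0.000652), without a filter on low counts (adjusted p = 0.0141) and in the fit over 12 libraries (adjusted p = 0.0264). MMP2 also passed by DESeq2 (adjusted p = 0.018), which called 1479 genes in all where edgeR called 69. CDH2 stood at 0.74 (SE 0.27, adjusted p = 0.203), with 357.7 ± 52.5 CPM in CDKO and 210 ± 77.2 CPM in CTRL.

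The remaining genes overlapped between genotypes. ZEB2 stood at 0.84 (adjusted p = 0.407), TWIST1 at 0.92 (adjusted p = 0.34) and VIM at 0.78 (adjusted p = 0.351). CDH1 and SNAI1 were close to 0, at 0.04 (95% interval -0.24 to 0.32) and 0.01 (95% interval -0.67 to 0.69). With library totals alone these 2 differences turned negative, to -0.03 for CDH1 and -0.06 for SNAI1.

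**Figure D4:**
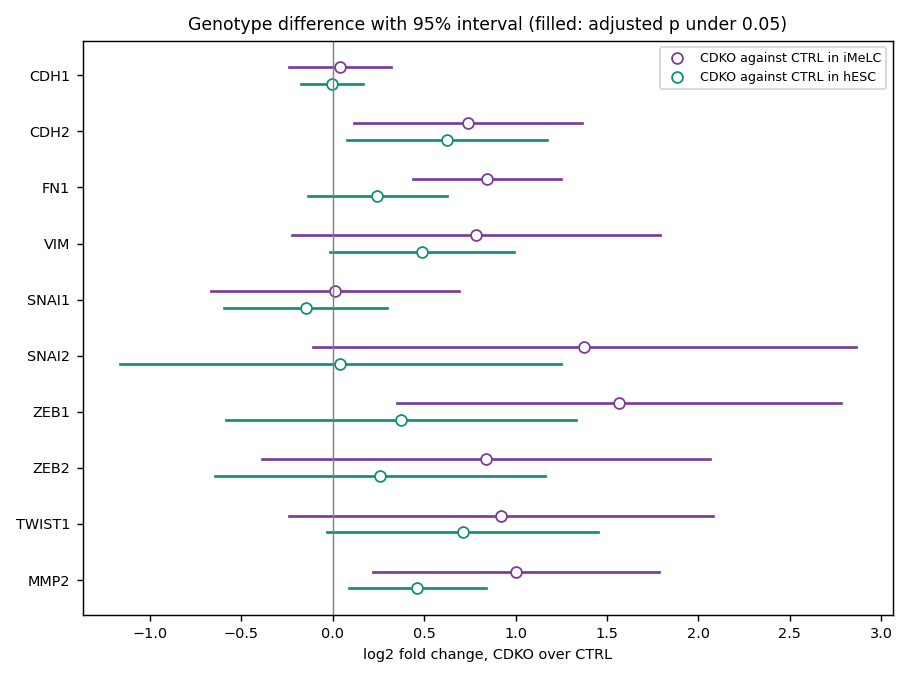
Genotype difference of the 10 genes, as log2 fold change of CDKO over CTRL with its 95% interval, in iMeLC and in hESC (fits of 6 libraries each). No point is filled, as none had an adjusted p under 0.05. The intervals of CDH2, FN1, ZEB1 and MMP2 lie above 0 in iMeLC, as do those of CDH2 and MMP2 in hESC. That of CDH1 spans -0.24 to 0.32 in iMeLC.

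As iMeLC, the highest of the 3 CTRL lines stood further above the lowest than the highest CDKO line did above the lowest CDKO line for each of the 10 genes, a difference in spread that was not tested. CTRL1106 had the lowest of the 3 CTRL values for 9 of the 10 genes and the highest for CDH1. CTRL1101 had the highest for 7 (CDH2, FN1, VIM, SNAI2, ZEB1, ZEB2 and TWIST1), and CTRL1109 for SNAI1 and MMP2. Among the CDKO lines the highest value was 1.24 times the lowest for VIM, 1.82 times for ZEB1, 1.53 times for ZEB2 and 2.17 times for TWIST1. Among the CTRL lines it was 3.74 times the lowest for VIM, 4.87 times for ZEB1, 4.155 times for ZEB2 and 3.604 times for TWIST1. CDH1 varied least, by 1.17 times among CDKO lines and 1.345 times among CTRL lines.

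Leaving out CTRL1101 brought 5 of the 10 past the threshold in iMeLC: VIM (1.57, adjusted p = 0.00483), ZEB2 (1.86, adjusted p = 0.0052), FN1 (1.04, adjusted p = 0.0106), ZEB1 (2.40, adjusted p = 0.0136) and TWIST1 (1.71, adjusted p = 0.0263). Without that library 12.8% of all genes were called, 2646 against 69 with it. No call among the 10 appeared when any other iMeLC library was left out.

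Markers of other cell types also varied between these lines. Fibroblast or feeder markers, a list of 11 genes all positive for CDKO over CTRL and none called, summed to 1065 to 1385 CPM in CDKO iMeLC, and to 1284 CPM in CTRL1101, 693.6 CPM in CTRL1106 and 730.3 CPM in CTRL1109. The fibroblast genes DCN and LUM stood at 3.617 to 9.263 and 1.447 to 3.807 CPM in CDKO iMeLC. In CTRL iMeLC they stood at 0.6958 to 3.43 and 0.2203 to 0.5267 CPM, wholly below the CDKO libraries. COL3A1 and COL6A3 had 79.86 to 166 and 65.12 to 114 CPM in CDKO iMeLC. Their CTRL iMeLC values were 13.63 to 46.31 and 12.15 to 55.76 CPM. Others of the list overlapped, such as COL1A1, with 343.8 to 511.6 CPM in CDKO iMeLC and 194.5 to 593.2 CPM in CTRL iMeLC. Definitive endoderm markers, 7 of 7 positive and none called, summed to 718 to 1573 CPM in CDKO iMeLC, and to 231.6, 49.54 and 479.5 CPM in CTRL1101, CTRL1106 and CTRL1109. CER1 alone made up most of these sums, with 564.6 to 1234 CPM in CDKO iMeLC and 32.3 to 351.8 CPM in CTRL iMeLC. Primitive streak markers summed to 547.3 to 763.9 CPM in CDKO iMeLC, and to 507.4, 185.5 and 790 CPM in the same CTRL lines, with 5 of 8 positive and none called. Neural crest markers reached 87.37 to 92.43 CPM in CDKO iMeLC and 59.6 to 66.86 CPM in CTRL iMeLC. Of the 7, 3 were positive, with a median of -0.18, and 1, ETS1, was called (0.59, adjusted p = 0.0492), with 72.42 to 76.17 CPM in CDKO iMeLC and 44.97 to 51.48 CPM in CTRL iMeLC, most of the sum. Amnion or trophectoderm markers summed to 66.62 to 70.94 CPM in CDKO iMeLC and 29.42 to 83.32 CPM in CTRL iMeLC, with 5 of 7 tested positive and none called. Every fibroblast, endoderm, streak and neural crest marker had a count in every iMeLC library. Whether cells of these types were present, and what part they had in the differences of the 10 genes, was not tested.

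**Figure D5:**
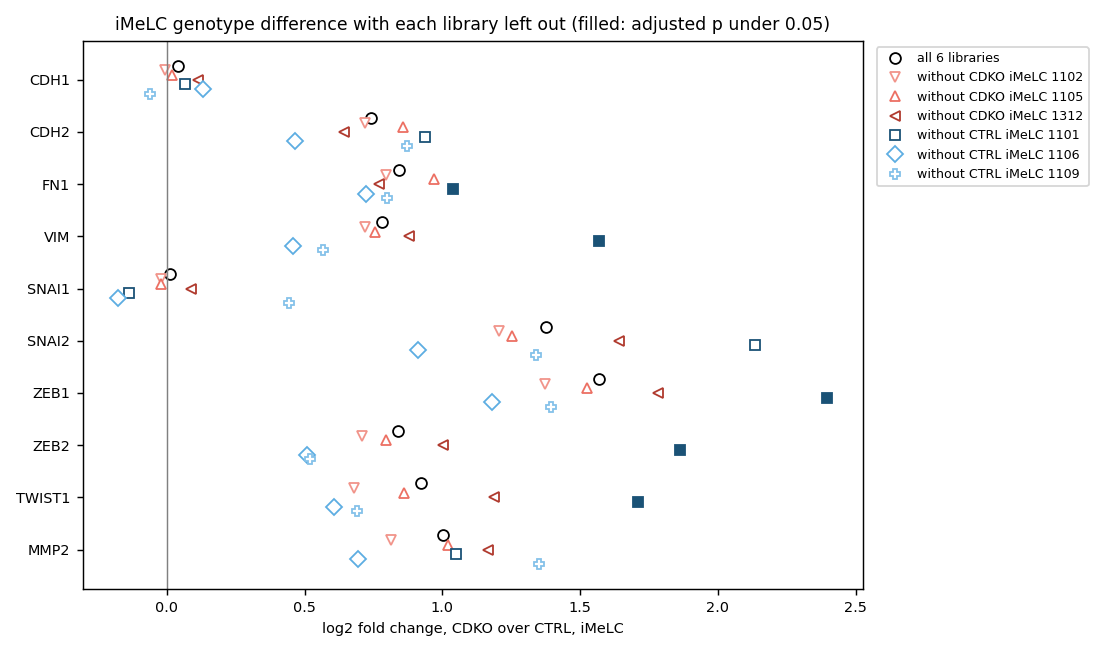
Genotype difference in iMeLC (log2 fold change, CDKO over CTRL) of each of the 10 genes with all 6 libraries and with each library left out in turn; filled symbols mark an adjusted p under 0.05. Only the fits without CTRL1101 hold filled symbols, for FN1, VIM, ZEB1, ZEB2 and TWIST1, while CDH1 and SNAI1 stay between -0.18 and 0.44.

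In hESC the same comparison gave 8 positive differences, beside 49.7% of all genes, and 2 negative ones (CDH1 and SNAI1), and edgeR called none of the 10, beside 1.31% of all 17222 genes. At an unadjusted p under 0.05, 2 passed (CDH2 and MMP2), beside 16.1% of all genes, and DESeq2 called none. Only MMP2 had CDKO libraries wholly above the CTRL libraries, as did 10.2% of all genes, at a log2 difference of 0.46 (SE 0.167, adjusted p = 0.213). CDH2 stood at 0.63 (SE 0.245, adjusted p = 0.249), and at 0.23 without CDKO hESC 3, the library with raised endoderm markers. In that library primitive streak markers summed to 145.4 CPM, compared with 18.92 and 35.12 CPM in CDKO hESC 1 and 2 and 8.67 to 45.01 CPM in CTRL hESC. VIM stood at 0.49 (adjusted p = 0.324), TWIST1 at 0.71 (adjusted p = 0.326), ZEB1 at 0.37 (adjusted p = 0.707), ZEB2 at 0.26 (adjusted p = 0.791) and FN1 at 0.25 (adjusted p = 0.51). Without a filter on low counts CDH2 (adjusted p = 0.00185), VIM (adjusted p = 0.00181) and MMP2 (adjusted p = 0.0411) passed, in a fit that called 1228 genes in place of 226.

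CDH1 was level between the genotypes in hESC, with 227.8 ± 13.4 CPM in CDKO and 230 ± 11.7 CPM in CTRL (SD, n = 3 each) and a 95% interval of -0.17 to 0.16 on the log2 scale. SNAI1 stood at -0.15 (95% interval -0.59 to 0.30) and SNAI2 at 0.04 (95% interval -1.16 to 1.25). CTRL hESC 1 had the highest of the 3 CTRL values for 9 of the 10 genes and CTRL hESC 3 the lowest for 8. The SE of the genotype difference in hESC was 0.428 for ZEB1, 0.404 for ZEB2, 0.331 for TWIST1 and 0.54 for SNAI2, and 0.2 for SNAI1.

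Whether the genotype difference itself changed with the stage was tested by the interaction. It was positive for all 10 genes, beside 48.3% of all genes, and passed for none, beside 0.0197% of all 20262 genes (4 genes). FN1 was the only one of the 10 with an unadjusted p under 0.05, beside 11.2% of all genes, at 0.64 (SE 0.276, adjusted p = 0.419), and DESeq2 called none. SNAI2 stood at 1.38 (SE 0.942, adjusted p = 0.619) and ZEB1 at 1.22 (SE 0.779, adjusted p = 0.588). Without CTRL hESC 1 they stood at 0.44 for SNAI2 and 0.60 for ZEB1, and without CTRL1101 as iMeLC at 2.11 for SNAI2 and 2.03 for ZEB1, with no adjusted p under 0.0914 for ZEB1 or 0.214 for SNAI2 when any 1 library was left out. CDH1 and CDH2 were at 0.08 (95% interval -0.24 to 0.41) and 0.15 (95% interval -0.74 to 1.05). The stage and genotype comparisons share libraries, so the values of one are not support for the other.

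Genes around the cadherin switch give the setting. Of 26 other mesenchymal genes tested, which include the collagens COL1A1, COL1A2 and COL3A1, POSTN and THY1 of the fibroblast markers, 20 were called higher and 2 lower in CDKO iMeLC than in CDKO hESC, and 20 higher and 1 lower in CTRL, with medians of 2.06 and 1.32. Among all genes the shares were 32.1% higher and 27.7% lower in CDKO, and 29.5% higher and 19.9% lower in CTRL. The collagen-binding matrix protein SPARC rose by 1.71 in CDKO (adjusted p = 3.55e-07) and 1.38 in CTRL (adjusted p = 3.28e-06). The helix-loop-helix factor TCF3, also known as a repressor of CDH1, rose by 0.81 in CDKO (adjusted p = 4.11e-07) and 0.76 in CTRL (adjusted p = 1.03e-06). The fibrillin FBN1 rose by 4.18 in CDKO (adjusted p = 3.36e-06). It was not among the 4 called genes with the smallest adjusted p in CTRL, and its interaction did not pass (1.475, adjusted p = 0.379). Between genotypes in iMeLC, 23 of the 26 were positive, with a median of 0.58, and none was called. SPARC had the smallest adjusted p there (0.72, adjusted p = 0.098) and in hESC (0.43, adjusted p = 0.0901), where 15 of 24 were positive.

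Epithelial genes moved both ways. In CDKO, 7 of 20 were called higher and 5 lower in iMeLC, and in CTRL 8 higher and 7 lower, with medians of 0.02 and -0.03. Over all genes, 32.1% were called higher and 27.7% lower in CDKO, and 29.5% and 19.9% in CTRL. The CDKO counts of the list lay near those shares. The tight junction protein OCLN rose by 1.44 in CDKO (adjusted p = 5.78e-06) and 1.33 in CTRL (adjusted p = 1.55e-05), and the keratin KRT8 by 1.79 in CDKO (adjusted p = 1.27e-05) and 1.48 in CTRL (adjusted p = 8.1e-05). The claudin CLDN3 fell, at -2.27 in CDKO (adjusted p = 4.29e-05) and -1.67 in CTRL (adjusted p = 0.000528). Between genotypes the 1 call was CLDN4 in hESC, another claudin, with 2.93 ± 0.523 CPM in CDKO and 7.20 ± 0.669 CPM in CTRL (-1.29, adjusted p = 0.0169), and none was called in iMeLC, where EPCAM had the smallest adjusted p (0.60, adjusted p = 0.106).

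Of 14 other cadherins and catenins, 5 were called higher and 1 lower in CDKO iMeLC, beside 32.1% and 27.7% of all genes, and 3 higher and 1 lower in CTRL iMeLC, beside 29.5% and 19.9% of all genes. CTNNA1, alpha-catenin, rose by 1.55 in CDKO (adjusted p = 3.85e-09) and 1.23 in CTRL (adjusted p = 4.29e-08), CTNNB1, beta-catenin, by 0.65 in CDKO (adjusted p = 4.82e-05) and 0.26 in CTRL (adjusted p = 0.0292), and P-cadherin, CDH3, by 0.67 in CDKO (adjusted p = 4.82e-05) and 0.77 in CTRL (adjusted p = 1.88e-05). CTNNA2, another alpha-catenin, fell in CTRL (-1.06, adjusted p = 0.00531). None of 13 was called between genotypes in iMeLC, and none of 10 in hESC.

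The receptors for fibronectin rose as well. Of 7 integrin genes tested, 4 were called higher in iMeLC in each genotype and none lower: ITGB5 (1.83 in CDKO and 1.95 in CTRL), ITGB1 (1.77 in CDKO and 1.44 in CTRL), ITGA5 (1.68 in CDKO and 1.16 in CTRL) and ITGAV (1.56 in CDKO and 0.77 in CTRL), with adjusted p of up to 0.0075. Beside these counts, 32.1% of all genes were called higher and 27.7% lower in CDKO, and 29.5% and 19.9% in CTRL. Between genotypes in iMeLC all 7 were positive, with a median of 0.68, and none was called, ITGA5 having the smallest adjusted p (0.80, adjusted p = 0.124). Of 5 tested in hESC, 3 were positive and none called.

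Around MMP2, the inhibitors TIMP1 and TIMP2 and the membrane protease MMP14, known to activate MMP2, rose in CDKO, by 2.09 (adjusted p = 1.17e-07), 1.86 (adjusted p = 0.000108) and 1.003 (adjusted p = 0.000184). TIMP1 rose by 1.78 in CTRL (adjusted p = 5.85e-07), MMP17 by 0.80 (adjusted p = 0.00321) and MMP10 by 4.57 (adjusted p = 0.00627). MMP11 fell in CTRL, at -1.68 (adjusted p = 0.00117). TIMP2 and MMP14 were not among the 4 called genes with the smallest adjusted p in CTRL. Of 14 MMP and TIMP genes tested, 7 were called higher and 2 lower in CDKO, and 5 higher and 4 lower in CTRL. The shares of all genes were 32.1% higher and 27.7% lower in CDKO, and 29.5% higher and 19.9% lower in CTRL. None was called between genotypes in either stage, the smallest adjusted p being that of TIMP4 in iMeLC (0.97, adjusted p = 0.0785).

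In the TGF-beta group, which is known to drive the transition in epithelial cells, 10 of 14 genes were called higher and 2 lower in CDKO iMeLC against hESC, and 7 higher and 2 lower in CTRL. For all genes it was 32.1% higher and 27.7% lower in CDKO, and 29.5% higher and 19.9% lower in CTRL. SMURF2, a ubiquitin ligase that limits the signal, rose by 1.36 in CDKO (adjusted p = 2.51e-07) and 1.02 in CTRL (adjusted p = 4.36e-06), and SKIL, a SMAD co-repressor, fell, at -0.74 in CDKO (adjusted p = 4.34e-05) and -0.73 in CTRL (adjusted p = 6.56e-05). The only gene of these pathway lists called between genotypes in iMeLC was TGFBR3, betaglycan, the co-receptor that presents TGF-beta, with 19.6 ± 1.31 CPM in CDKO and 7.42 ± 1.67 CPM in CTRL (1.37, SE 0.182, adjusted p = 0.0379). In the interaction none of the genes of these lists was called.

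The genes whose pattern over the 12 libraries was most like that of CDH2, by Pearson's correlation of log2 CPM among 11313 genes, were PTPRM, a receptor phosphatase of cell contacts (r = 0.994), GPC6, a glypican (r = 0.993), and IBTK (r = 0.992). PTPRM had 30.03 to 43.51 CPM in CDKO iMeLC and 14.96 to 26.28 CPM in CTRL iMeLC, against 2.432 to 4.714 CPM in CDKO hESC and 2.173 to 3.073 CPM in CTRL hESC. Nearest to CDH1 were FBXW11 (r = 0.984), USO1 (r = 0.981) and TMEM63B (r = 0.971), of which USO1 had 327.8 to 376.7 CPM in CDKO iMeLC and 277.8 to 361.6 CPM in CTRL iMeLC, against 193.7 to 228.1 CPM in CDKO hESC and 210.5 to 217 CPM in CTRL hESC. The points share the gap between stages, tables and depths, so these values describe likeness only.

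Some counts could hold reads of overlapping genes, since no source used here gives the strand setting of the counting. In GENCODE release 29, exons overlapped an opposite-strand gene over 641 bases for VIM (VIM-AS1), 366 for ZEB1 (ZEB1-AS1), 1299 for ZEB2 (ZEB2-AS1), 347 for CDH1, 136 for CDH2 and 141 for TWIST1, and a same-strand gene over 174 bases for MMP2. VIM-AS1 was higher in iMeLC, as VIM was, by 1.27 in CDKO (adjusted p = 0.0229) and 1.49 in CTRL (adjusted p = 0.0128), at 8.67 ± 0.375 CPM in CDKO iMeLC. ZEB1-AS1 was lower in iMeLC in CDKO (-0.88, adjusted p = 0.0326), opposite to ZEB1, and did not pass in CTRL (-0.67, adjusted p = 0.095). ZEB2-AS1 did not pass the count filter of the stage fit.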

How the data were processed

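Total RNA libraries (SMARTer Stranded Total RNA kit, per the labels' protocols) were made from sorted cells or cell pellets. The authors deposited, for each stage, a table of raw read counts by gene symbol. The build GRCh38 and the tools cutadapt, FastQC and edgeR are named by the authors, per the submitters' processing notes. For the aligner, the counter, the annotation and the strand setting, none is given in those sources. All columns were mapped to a group. Replicate libraries of a group differed by more than sampling noise (chi-square per gene 4.41 to 198).

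From the counts, edgeR 4.0.16 (R 4.3.3) was run on the whole table: TMM, filterByExpr, glmQLFit and glmQLFTest (two-sided), Benjamini-Hochberg adjustment, threshold 0.05. Genotype was fitted within each stage on 6 libraries. Stage and interaction were fitted on 12 libraries with 4 group means, treated as independent, although by the labels each line was profiled as hESC and as iMeLC. CPM use TMM over 12 libraries. P-values rest on library spread, where line and culture cannot be told apart. The scripts were tested on simulated counts. Levels per kilobase use the union of GENCODE 29 exons. Of 36762 symbols, 34217 (93.1%) matched 1 GENCODE gene.

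The 10 genes, lists and markers were chosen with earlier results of these data known. Named from each other list were up to 4 called genes with the smallest adjusted p, or the 1 with the smallest if none was called, and for CDH1 and CDH2 the 3 genes of at least 5 CPM, with a count in every library, nearest by correlation. DESeq2 1.42.0, other scalings, no count filter, other libraries in the fit and leaving out each library were the alternatives.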

Additional observations from a re-analysis of the deposited data

How the results depend on the processing

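Of the 10 genes, the number called was 9 in either stage comparison and 0 in the genotype and interaction comparisons. Without each library in turn it ran from 9 to 9 for the stage in CDKO, 8 to 9 for the stage in CTRL, 0 to 5 for the genotype in iMeLC, and 0 to 0 in hESC and in the interaction. Library totals alone gave 7 in CDKO and 7 in CTRL. The genotype count was 3 in hESC and 1 in iMeLC without a filter on low counts, 2 in iMeLC by DESeq2, and 1 in iMeLC in the fit over 12 libraries. The causes were not tested.

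Over the whole table, 226 genes called in hESC became 1228 without a filter, 632 by DESeq2, 72 in the fit over 12 libraries and 5 to 493 without 1 library. The 69 in iMeLC became 428, 1479, 1310 and 15 to 2646. The 4 of the interaction became 29 without a filter, 192 by DESeq2 and 1 to 439 without 1 library. The 12113 of the stage in CDKO became 10817 to 11201 and the 10013 in CTRL 8527 to 9925 without 1 library.

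Differences that changed sign were all of results that had not passed. With library totals alone they were CDH1 (-0.029) and SNAI1 (-0.056) for the genotype in iMeLC, SNAI2 for the stage in CTRL (-0.15) and CDH1 in the interaction (-0.0070). Leaving out 1 library gave ranges across 0: for the genotype in hESC -0.058 to 0.036 for CDH1, -0.27 to 0.93 for SNAI2 and -0.10 to 0.48 for ZEB2; for the genotype in iMeLC -0.062 to 0.13 for CDH1 and -0.18 to 0.44 for SNAI1; for the stage in CTRL -0.64 to 1.10 for SNAI2; and in the interaction -0.049 to 0.15 for CDH1, -0.15 to 0.52 for CDH2, -0.014 to 1.10 for VIM, -0.0075 to 0.60 for SNAI1 and -0.090 to 1.014 for TWIST1. The SNAI1 stage call in CTRL was also lost with DESeq2 size factors (0.63, adjusted p = 0.0609) and in a fit of the 6 CTRL libraries (0.69, adjusted p = 0.119).

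Without length scaling the mean log2 ratio of CDH2 to CDH1 was 0.049 in CDKO iMeLC in place of 0.37, and -3.66 in CTRL hESC in place of -3.34. Against the main fit, the median stage difference differed by -0.368 in CDKO and -0.150 in CTRL without a filter. By DESeq2 it differed by -0.497 in CDKO and -0.344 in CTRL. These medians cover 34694 genes in place of 20262, so they do not measure a shift of the same genes. No paired analysis was possible because the hESC columns carry a genotype and a number but no line. Each group held 3 libraries, and what depth adds to the spread was not tested.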
